A study of Mus musculus with 6 samples.

Results

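The miRNAs of a Control mouse Achilles tendon are described here from 1 small RNA-seq library, as ranks and shares of its reads. Members were the features with 100 or more reads in the Control column of the small RNA count table, 234 of the 2265 features listed. Of these, 13 repeated another row under a second name with the same count, which left 221 loci. Loci whose names differ only in a copy number were counted once, by the locus with most reads, and each such unit is called a product below. The 221 loci gave 198 products, 185 of them named as miRNA genes.

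The study removed Dicer, the RNase that cuts miRNA hairpins to their mature length, from Scx-expressing tendon cells, and sequenced Achilles tendon of 4-week-old mice of 3 genotypes, with 1 library per genotype and assay. The Control tendon (genotype Dicer f/f, sample number 211) carries the floxed Dicer alleles and no ScxCre, so that Dicer is intact in its cells. Its small RNA and RNA-seq libraries come from the same RNA sample. With 1 library there is no replicate, no spread between mice can be given and no test was made.

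A miRNA is transcribed as part of a longer RNA, cut to a hairpin by Drosha and then to a short duplex by Dicer, and 1 arm of that duplex is kept by an Argonaute protein. The seed, bases 2 to 8 of the mature miRNA, does most of the pairing with target mRNAs, so miRNAs with the same seed are grouped as a family. Many miRNA hairpins lie in clusters that are transcribed together, and several mature sequences are made from more than 1 place in the genome.

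The Control column held 10986541 reads, of which 6999494 were left once each product was counted once; shares below are percent of these 6999494 reads, with exact (Clopper-Pearson) 95% binomial intervals where given. The intervals cover counting error only, since reads are not independent molecules. In all, 569 products had at least 1 read, and the 198 products held 99.92% of the reads (99.92 to 99.93). In the RNA-seq library of the same tendon, which held 16244232 reads, the 10 tendon markers looked up were all detected, at 29.1 RPKM (reads per kilobase, scaled to the reads of the library) for Tppp3, 32.3 for Scx, 482 for Tnmd, 1848 for Fmod and 11832 for Col1a1. The 6 skeletal muscle markers were detected too, at 83.1 (Myh4) to 3425 RPKM (Acta1), and the epidermal keratins Krt5 and Krt14 were at 0.

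The mature sequences of the most abundant products are shown first, because their seeds define the families and because close relatives differ by so few bases. They were taken from RefSeq (GRCm38.p6), in which 190 of the 221 loci had a mature sequence, and the seed is in capitals. The counts cover whole hairpins and do not separate the arms, so each sequence is that of the arm usually named as the guide, given as background. The let-7 family led the library, and its 9 products share the seed GAGGUAG.
let-7c-5p: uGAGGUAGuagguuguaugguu
let-7b-5p: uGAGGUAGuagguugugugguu
let-7a-5p: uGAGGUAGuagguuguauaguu
let-7f-5p: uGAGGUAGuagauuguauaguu
let-7i-5p: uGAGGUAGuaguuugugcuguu
let-7e-5p: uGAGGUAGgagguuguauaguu
let-7d-5p: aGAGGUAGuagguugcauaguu
let-7g-5p: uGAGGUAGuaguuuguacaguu
miR-98-5p: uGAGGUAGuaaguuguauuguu

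Counted from 1 at the 5′ end of let-7c, let-7b differs from it by A17G alone and let-7a by G19A alone. In let-7f the differences are G12A and G19A, in let-7e U9G and G19A, and in miR-98 G11A and G19U. For let-7i, the fifth of the family in reads, 4 bases differ (G12U, A17G, U18C and G19U). How many mismatches the mapping allowed is not given in the sources used here, so reads of such near-identical sequences may have been counted for a relative.

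Other abundant families with several products were miR-125, miR-199, miR-15/miR-16, miR-26 and miR-148/miR-152, and their leading products are shown with close relatives.
miR-125b-5p: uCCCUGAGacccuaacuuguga
miR-125a-5p: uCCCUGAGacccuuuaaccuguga
miR-351-5p: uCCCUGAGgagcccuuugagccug
miR-199a-3p: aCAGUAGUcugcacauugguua
miR-199b-3p: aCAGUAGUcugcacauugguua
miR-16-5p: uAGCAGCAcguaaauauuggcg
miR-195a-5p: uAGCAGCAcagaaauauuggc
miR-15b-5p: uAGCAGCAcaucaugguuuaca
miR-26a-5p: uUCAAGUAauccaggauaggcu
miR-26b-5p: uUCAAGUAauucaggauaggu
miR-148a-3p: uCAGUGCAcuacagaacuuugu
miR-152-3p: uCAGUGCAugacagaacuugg
The 3p sequences of miR-199a and miR-199b are the same, although their names differ by more than a copy number, so reads of that arm cannot be told apart between them.

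Products that are known from muscle, endothelium, the imprinted Dlk1-Dio3 region or skeletal patterning, and whose values are given below, are these.
miR-206-3p: uGGAAUGUaaggaagugugugg
miR-133b-3p: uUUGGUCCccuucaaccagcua
miR-126a-3p: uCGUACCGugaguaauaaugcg
miR-127-3p: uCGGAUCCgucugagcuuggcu
miR-379-5p: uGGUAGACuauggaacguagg
miR-214-3p: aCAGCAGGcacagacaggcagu
miR-140-3p: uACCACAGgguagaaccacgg
miR-196a-5p: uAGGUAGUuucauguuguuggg
miR-196b-5p: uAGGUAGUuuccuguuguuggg
miR-10b-5p: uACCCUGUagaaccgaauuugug
For miR-1a, miR-133a, miR-143 and miR-30d no sequence was matched.

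A few products held most of the library. let-7c, a miRNA that rises as tissues mature, was the most abundant with 883070 reads, 12.6% of the library (12.59 to 12.64), and miR-125b, known from many differentiating tissues, was close behind with 855417 reads (12.2%). Together with miR-199a (559555 reads), the 3 leading products held 32.8% of the reads. The 10 leading products held 73.5%, 6 products were enough to reach 50%, 25 to reach 90% and 91 to reach 99%. These figures count miR-199a and miR-199b separately, although they share their 3p sequence and may share reads. With both counted once, the 10 leading products held 74.3%, and fewer products may be needed to reach 50%. At the other end, 88 of the 198 products had fewer than 1000 reads each, and these held 0.520% of the reads between them.

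**Figure D1:**
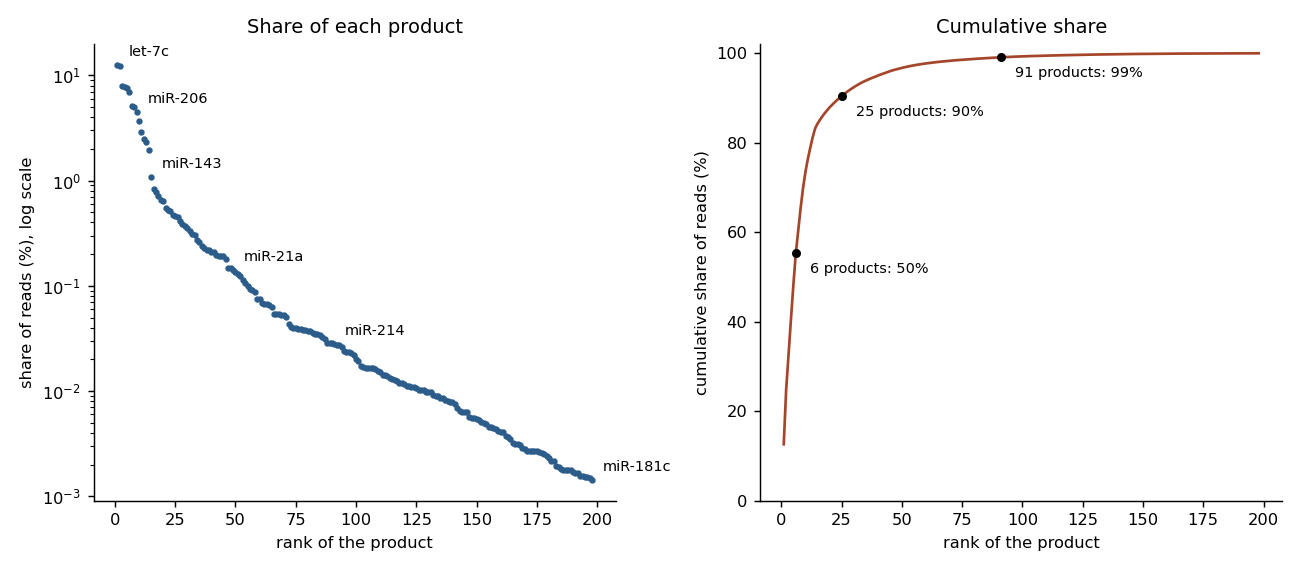
Share of reads (left, percent on a log scale) and cumulative share (right, percent) of the 198 products with 100 or more reads in the Control library, ordered by rank. Each point is 1 product; the share falls from 12.6% for let-7c to 0.00143% for miR-181c, and the marked points on the right show that 6, 25 and 91 products reached 50%, 90% and 99%. miR-199a and miR-199b are counted separately.

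After miR-199a came miR-199b (546684 reads, 7.81%), let-7b (532838 reads, 7.61%) and miR-16 (489990 reads, 7.0%), the last known for holding back the cell cycle. let-7a had 355017 reads (5.07%), and let-7f was almost level with it at 352607 reads (5.04%). The ninth product was miR-206, a miRNA of skeletal muscle, with 310922 reads (4.44%), followed by miR-125a with 255486 reads (3.65%). The next 4 were miR-126a, a miRNA of endothelial cells, with 201949 reads (2.89%), miR-1a with 174314 reads (2.49%), miR-26a with 163856 reads (2.34%) and let-7i with 136137 reads (1.94%). No other product reached 100000 reads.

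Ranks 15 to 20 were held by miR-143 (76466 reads, 1.09%), miR-26b (58584 reads, 0.837%), miR-148a (54965 reads, 0.785%), miR-127 (49861 reads, 0.712%), let-7e (46297 reads, 0.661%) and miR-379 (44626 reads, 0.638%). miR-127 and miR-379 are products of the imprinted region between Dlk1 and Dio3. Among the 20 leading products, none of the 19 neighbouring pairs had overlapping counting intervals. The first overlap came at rank 22, where miR-30d (36521 reads) stood next to miR-191 (36335 reads), and over all 198 products the intervals of 149 of 197 neighbouring pairs overlapped. Counting error is therefore small for the leading ranks, but the order of products that differ by a base or share an arm, such as let-7a and let-7f or miR-199a and miR-199b, also depends on how reads were assigned.

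The 5 products just above the minimum were miR-376a (110 reads), miR-34c (108 reads), miR-6240 (107 reads), miR-450b (104 reads) and miR-181c (100 reads). Just below it were miR-17 (99 reads), miR-421 (98 reads), miR-487b (97 reads), miR-377 (96 reads) and the feature Gm47287 (95 reads). The minimum thus passed through a dense stretch of counts, with miR-181c and miR-17 a single read apart.

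Grouped by family, the library was narrower still. The hand-written family table placed 112 of the 198 products, holding 98.8% of the reads, into 64 families, and the 5 leading families held 79.4% of the reads. In RefSeq, guide sequences of 2 or more products were found for 22 of the 28 families with 2 or more products, and in 21 of these 22 they had 1 seed. Since the table groups loci by the seed of their guide, this only checks its entries and is not a result about the library. In the miR-101 family the seeds of miR-101a and miR-101b are set off by a base (ACAGUAC and UACAGUA).

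**Figure D2:**
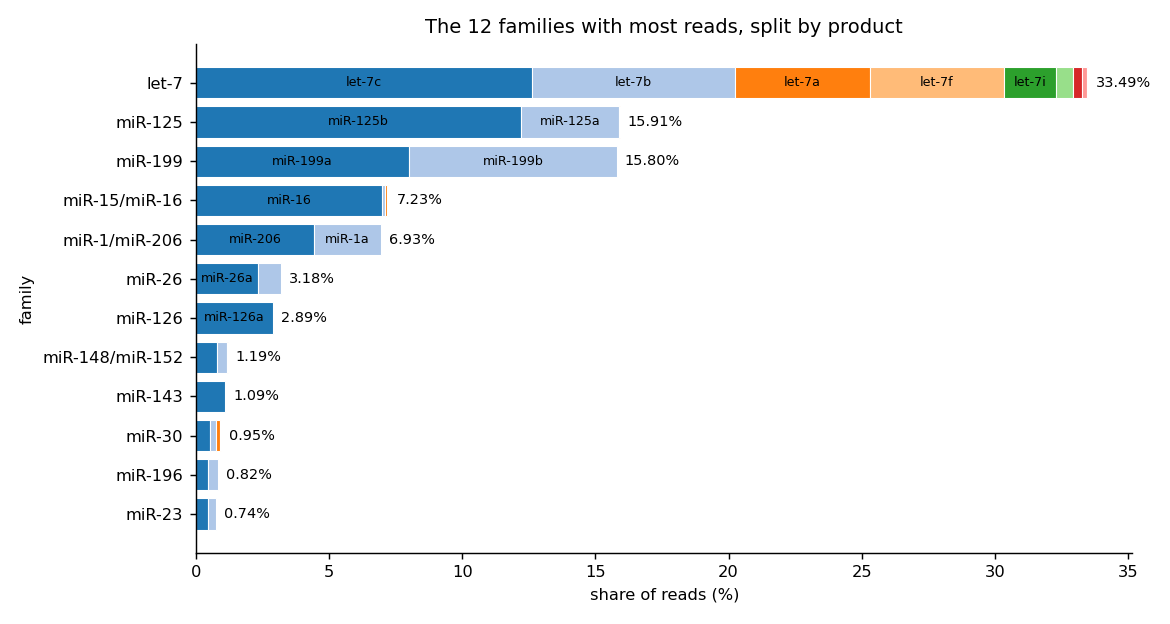
Share of reads (percent, bar length) of the 12 families with most reads in the Control library, with each bar split into its products in order of reads. let-7 reached 33.5% of the reads, and miR-125 and miR-199 followed at 15.9% and 15.8%. miR-199a and miR-199b are counted separately here, and counted once they held 8.67%.

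The let-7 family, which restrains growth and stem cell programmes, held 2344378 reads or 33.5% of the library (33.46 to 33.53). let-7c made up 37.7% of the family, followed by let-7b, let-7a and let-7f. The lower members were let-7i, let-7e, let-7d with 21838 reads, let-7g with 14746 reads and miR-98 with 1828 reads. The family thus spanned from the most abundant product of the library to 1 at rank 94. Mirlet7j and Mirlet7k, also on the list, were not among the features analysed here.

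The miR-125 family held 15.9% of the reads (1113401), and 76.8% of these were miR-125b. The remaining member miR-351 had 2498 reads. The miR-199 family, prominent in mesenchyme, held 15.8% (1106239 reads) when miR-199a and miR-199b were counted separately. Counted once by the locus with most reads, it stood at rank 3 but held 8.67% of the then 6452810 reads. The gap between the miR-125 and miR-199 families therefore depends on the choice of counting, while miR-125 stood above miR-199 either way. With miR-199 counted once, the let-7 share was 36.3% and the share of the 10 leading products 74.3%.

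The miR-15/miR-16 family, whose members lower cyclins and other cell cycle genes, held 7.23% of the reads, and 96.8% of these were miR-16. The other 5 members had far fewer reads, with 7484 for miR-195a, 5273 for miR-322, 1164 for miR-15b, 1129 for miR-497 and 1076 for miR-15a. In the miR-1/miR-206 family (6.93%) the reads were divided more evenly, with 64.1% in miR-206 and the rest in miR-1a. The miR-26 family held 3.18%, and miR-26a made up 73.7% of it, and miR-126, with the single product miR-126a, followed at 2.89%.

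Every other family held no more than the 1.19% of the next, miR-148/miR-152, known for a role in DNA methyltransferase control, with 54965 reads for miR-148a, 26843 for miR-152 and 1646 for miR-148b. The miR-30 family held 0.952%, in the order miR-30d (36521 reads), miR-30a (16107 reads), miR-30e (9487 reads), miR-30c (3795 reads) and miR-30b (712 reads). The miR-29 family, whose targets include many collagen mRNAs, held only 0.233% of the reads, of which 84.9% were miR-29a (13829 reads). miR-29c had 2012 reads and miR-29b 447 reads, so that miR-29a exceeded them 6.87-fold (95% interval 6.56 to 7.21) and 30.9-fold (28.2 to 34.1). miR-21a, a miRNA often studied in fibrosis, held 0.142% (9908 reads) and ranked 49.

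More of the guide sequences began with U than with any other base. Of the 99 products with a guide sequence, holding 93.5% of the reads, 62 began with U, or 62.6%, and these 62 held 79.5% of the reads of the 99. A further 23 began with A, 10 with C and 4 with G. Over the 1674 different mature sequences of the RefSeq table, both arms included, 41.0% began with U. The median G and C content was 45.5% for the 99 guides and 52.2% for the whole table. These shares are descriptions, since the guides were chosen by arm and the table holds every arm. How much of the difference comes with that choice was not tested.

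Loci with the same name apart from the copy number gave close counts in most cases, and 23 products were of this kind. They held 56.5% of the reads. For 11 of the 23 the counts of the highest and lowest locus differed by less than 1%, and for 17 by less than 5%. The loci of miR-1a had 174314 and 174274 reads, those of miR-133a 18421 and 18418, those of miR-26a 163856 and 163794, and those of miR-16 489990 and 489629. For let-7c the loci were further apart, with 883070 and 871310 reads.

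**Figure D3:**
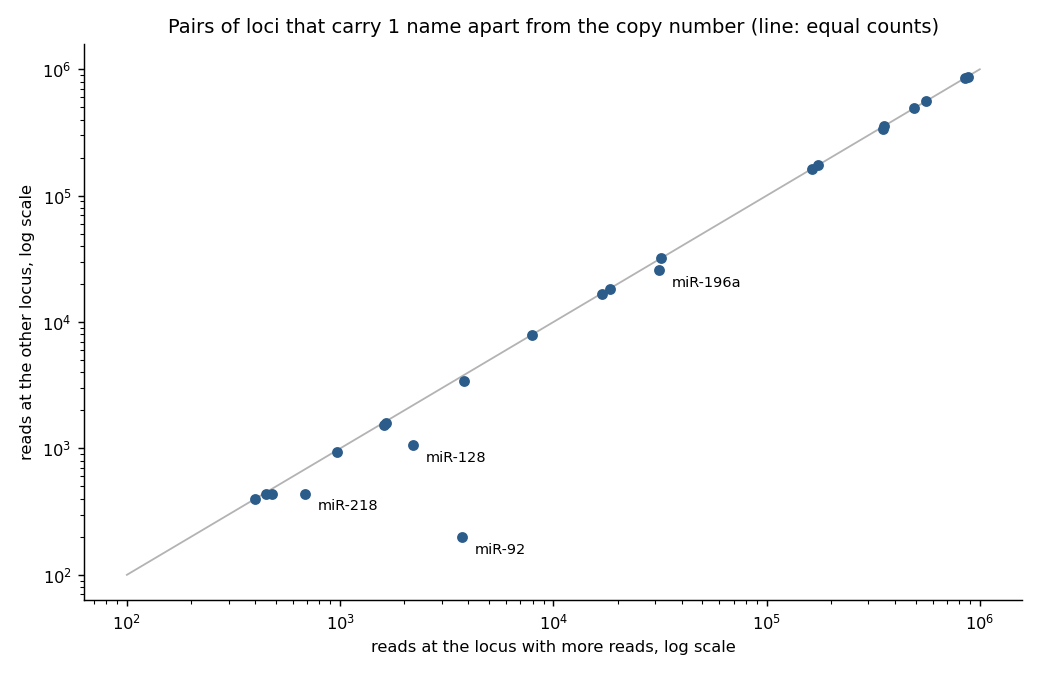
Reads at the locus with more reads (x axis, log scale) and at the other locus (y axis, log scale) for the 23 products with copies, with a line at equal counts. The points lie on or near the line except for miR-92, miR-128, miR-218 and miR-196a.

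The counts of 4 products differed by more than 15% between their loci. miR-92 had 3742 reads at Mir92-1 and 198 at Mir92-2, miR-128 had 2190 at Mir128-1 and 1056 at Mir128-2, and miR-218 had 686 at Mir218-2 and 440 at Mir218-1. miR-196a, encoded in the HOX clusters, had 31327 reads at Mir196a-2 and 25626 at Mir196a-1. RefSeq held mature sequences for all loci of 21 of the 23 products, and in 20 of them at least 1 mature sequence was identical between the loci (for Mirlet7a-2 only the 3p arm was in the table). The sources used here do not state whether a read that fits several loci was counted at each of them or divided among them. If it was divided, the sum of the copies is the better count, and the 10 leading products would then hold 79.9% of the reads and let-7 35.8%. If it was counted at each of them, that sum would count the same reads again. Several copies had nearly equal counts, such as 18421 and 18418 reads for miR-133a, and which way gave them was not tested.

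Members of genomic clusters held most of the reads. A cluster was defined as 2 or more miRNA loci with reads on the same strand, each within 10 kb of the next in the GENCODE annotation of GRCm38, the build that the submitters' processing notes name. The annotated length matched the length behind the deposited RPKM at all 219 loci found in it. There were 41 clusters with a member, with 158 loci that had reads. Products whose leading locus lay in a cluster held 65.7% of the reads (65.63 to 65.70), and 96 of the 198 products were of this kind. Requiring every copy to lie in a cluster lowered the share to 57.7%.

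**Figure D4:**
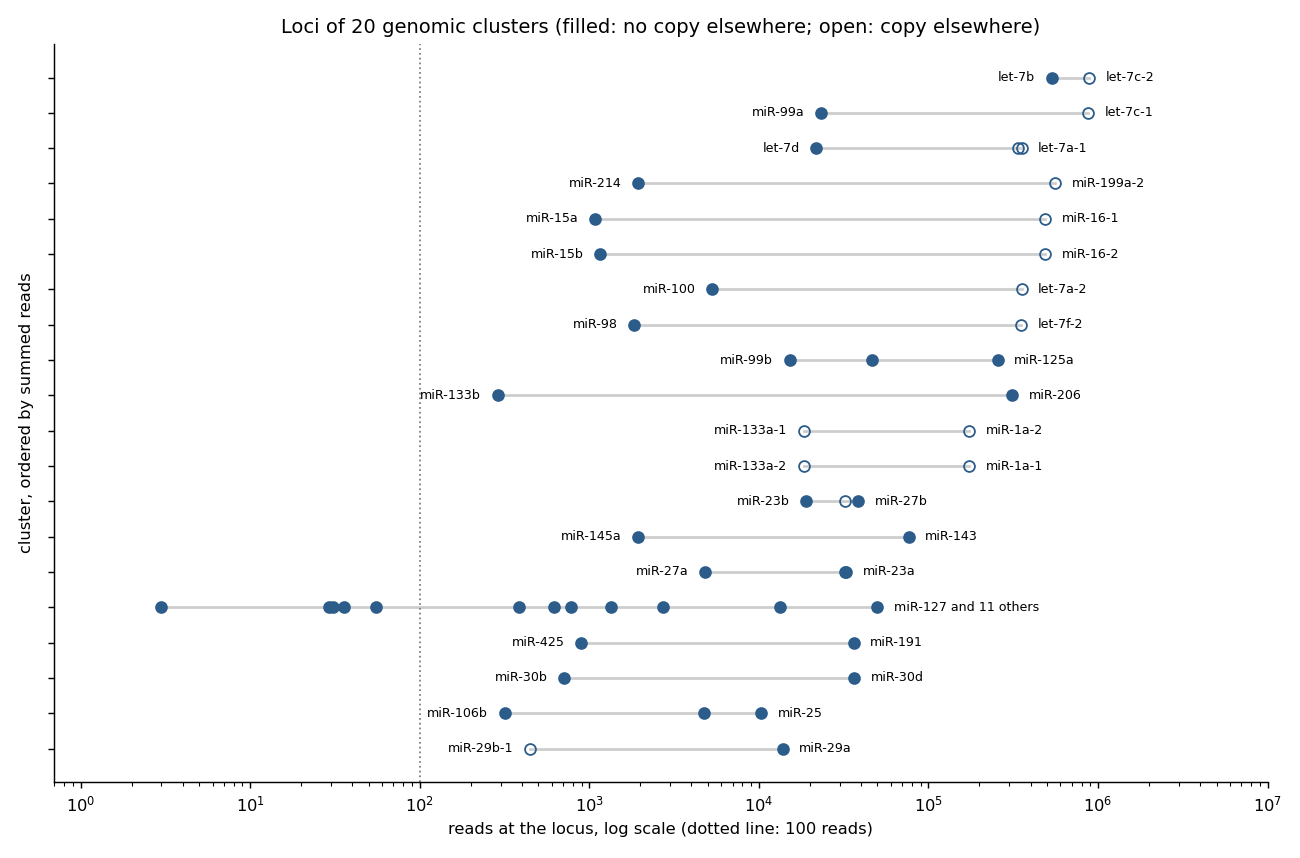
Reads at each locus (x axis, log scale) for the 20 clusters with most reads among those of up to 12 loci, 1 line per cluster in order of summed reads. Filled points are loci with no copy elsewhere, open points loci whose product has a copy elsewhere, and in the clusters of 2 or 3 loci the highest and lowest stand apart by between 1.66-fold (let-7c-2 and let-7b, the first line) and 1080-fold (310922 reads for miR-206 and 288 for miR-133b).

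The cluster with most reads, on chromosome 15, held let-7c-2 (chr15:85706603-85706697) and let-7b (chr15:85707319-85707403), both in exons of the noncoding gene Lncppara. Their counts were 883070 and 532838, a ratio of 1.66 (95% interval 1.65 to 1.66), which was the most even among the 10 leading clusters. The second held let-7c-1 (chr16:77599657-77599750) and miR-99a (chr16:77598936-77599000, 23215 reads) in introns of Mir99ahg, and let-7c-1 exceeded its neighbour 37.5-fold. miR-125b-2 (chr16:77646273-77646343) lies in an exon of the same host gene but further than 10 kb away. Much of the let-7c count may come from either of these clusters, because the locus of origin of a let-7c read cannot be told.

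On chromosome 17 a cluster in Spaca6 with no copies elsewhere held miR-125a (chr17:17830812-17830879), let-7e (chr17:17830352-17830444) and miR-99b, with 255486, 46297 and 15179 reads. These are the same 3 families as in the miR-125b, let-7 and miR-99a or miR-100 neighbourhoods. miR-125a exceeded let-7e 5.52-fold (5.46 to 5.57), and let-7e exceeded miR-99b 3.05-fold (2.99 to 3.11). Within the miR-99/miR-100 family miR-99a exceeded miR-100 (5298 reads) 4.38-fold (4.25 to 4.52). Close neighbours in 1 host gene thus differed more than counting error allows.

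The gaps were wider in other clusters. In Dnm3os, a noncoding RNA of mesenchyme, miR-199a-2 (chr1:162217814-162217923) had 559555 reads and miR-214 (chr1:162223368-162223477) had 1948, a ratio of 287 (275 to 300), although reads of miR-199a may also come from its copy antisense to Dnm2 and from miR-199b, antisense to Dnm1. In Dleu2, miR-16-1 (chr14:61631880-61631972) exceeded miR-15a 455-fold, and in Smc4, a condensin gene, miR-16-2 (chr3:69009902-69009996) exceeded miR-15b 421-fold. The guide sequences of miR-16-1 and miR-16-2 are the same, so the same reads may enter both ratios, and neither ratio can be ascribed to its cluster alone. miR-206 (chr1:20679010-20679082) had 310922 reads and miR-133b, in the same noncoding transcript Gm28653, had 288, a ratio of 1080 (962 to 1216). Neither miR-206 nor miR-133b has a copy elsewhere by name. However, miR-133a is in the family of miR-133b and no sequence was matched for it, so whether they share reads was not checked. In the miR-143/miR-145 cluster, known from smooth muscle and fibroblasts, miR-143 (76466 reads) exceeded miR-145a (1939 reads) 39.4-fold (37.7 to 41.3).

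The paralogous clusters of miR-23, miR-27 and miR-24 were ordered differently. On chromosome 8, miR-23a (chr8:84208518-84208592) had 32740 reads and miR-27a 4798, a ratio of 6.82 (6.62 to 7.04). On chromosome 13, miR-27b (chr13:63300712-63300784) had 38521 reads and miR-23b 18970, a ratio of 2.03 (1.996 to 2.066). miR-24, made from both clusters, had 32083 and 32029 reads at its loci. The miR-17 cluster in Mir17hg, a set linked to proliferation, was low, with miR-17 at 99 reads and miR-20a at 293. Its highest count was the 3742 reads of miR-92, which exceeded miR-20a 12.8-fold (11.3 to 14.4).

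The imprinted region between Dlk1 and Dio3 on chromosome 12 had the most members. From its 52 miRNA loci with reads, 30 passed 100 reads, and together the region held 2.63% of the reads (183838 reads, 2.61 to 2.64). Apart from miR-299b and miR-1247, the loci formed a cluster of 35 that starts at miR-379 (chr12:109709060-109709125), a cluster of 12 around miR-127 (chr12:109592846-109592915) and a cluster of 3 in Rian. The 6 loci with 10000 or more reads were miR-127 (49861), miR-379 (44626), miR-411 (21234), miR-541 (14606), miR-434 (13333) and miR-382 (12551). miR-127 and miR-434 lie antisense to Rtl1, an imprinted gene that they are known to repress. In the cluster of 35, miR-379 exceeded its neighbour miR-411 2.10-fold (2.07 to 2.14), and miR-758 and miR-1197 had 1 read each. Chromosome 12 carried the leading locus of 38 products, more than any other chromosome, but 2.80% of the reads.

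By the annotation, the leading loci of 54 products overlapped an exon of a longer gene on the same strand, and these products held 72.3% of the reads. A further 72 lay in introns (13.8% of the reads), 59 between genes (4.99%) and 11 antisense to a gene (8.86%), and 2 products were not found in the annotation. Many of the exons belong to noncoding host RNAs such as Lncppara, Dnm3os and Dleu2. The products with exonic loci had a median of 3768.5 reads, and those with intronic loci 1588. For products with copies these classes hold for the leading locus only. The exonic share thus includes let-7c and miR-16, whose other loci, let-7c-1 (871310 reads) and miR-16-2 (489629 reads), lie in introns.

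Host genes of several miRNAs were read in the RNA-seq library of the same tendon. Dnm3os was at 14.9 RPKM, Egfl7, the host of miR-126a, at 11.5, and Wwp2, the host of the cartilage miRNA miR-140 (29002 reads), at 9.18. The hosts of miR-26, genes of the Ctdsp family of phosphatases, were at 11.4 (Ctdsp1), 22.4 (Ctdsp2) and 7.69 RPKM (Ctdspl). Myh7, the slow myosin gene that hosts miR-208b, was at 291 RPKM while miR-208b had 256 reads. Myh7b, the host of miR-499, was at 1.35 RPKM while miR-499 had 73 reads. The order of hosts by RPKM was thus not the order of the miRNAs by reads.

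The miRNAs known from striated muscle held 7.20% of the reads (7.19 to 7.22), and 5 of the 8 products on that list passed 100 reads. miR-206, which marks skeletal muscle and regenerating fibres, had 310922 reads and miR-1a had 174274 at the locus on chromosome 2, a ratio of 1.78 (1.77 to 1.79). miR-133a, from the same transcripts as miR-1a, had 18418 reads at that cluster (chr2:180389048-180398482 with miR-1a-1), so that miR-1a exceeded it 9.46-fold (9.32 to 9.61). miR-133b had 288 reads, miR-208b 256, miR-499 73 and miR-1b 4, and the heart miRNA miR-208a was at 0, which allows a share of up to 4.29e-05% by the limit of 3 reads for a count of 0 (5.27e-05% by the exact interval). The share of the list therefore rests on miR-206 and miR-1a. The 6 muscle markers of the RNA-seq library, Myh1 at 409, Myh2 at 319, Ttn at 363 and Ckm at 172 RPKM among them, summed to 4770 RPKM beside 19602.5 for the 10 tendon markers, and none was at 0. Most of each sum came from 1 gene, Acta1 at 3425 and Col1a1 at 11832 RPKM. The sums are therefore not a measure of muscle against tendon tissue. The part of muscle fibres in the share of these miRNAs was not tested. In bulk tissue, fewer cells of a type and less RNA per cell cannot be told apart.

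Of the other miRNAs frequent in muscle, Mir486 had 13513 reads and Mir3107, which RefSeq also names miR-486b, had 13339. The loci lie on opposite strands of the same place on chromosome 8 (chr8:23142555-23142682 and chr8:23142573-23142662), Mir486 in an intron of the ankyrin gene Ank1. No guide sequence was matched for either, so whether their reads can be told apart was not checked. miR-378a, from an intron of the metabolic regulator Ppargc1b, had 8663 reads. All 3 products passed 100 reads, and the list held 0.507% of the library, or 0.317% with Mir486 and Mir3107 counted once.

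**Figure D5:**
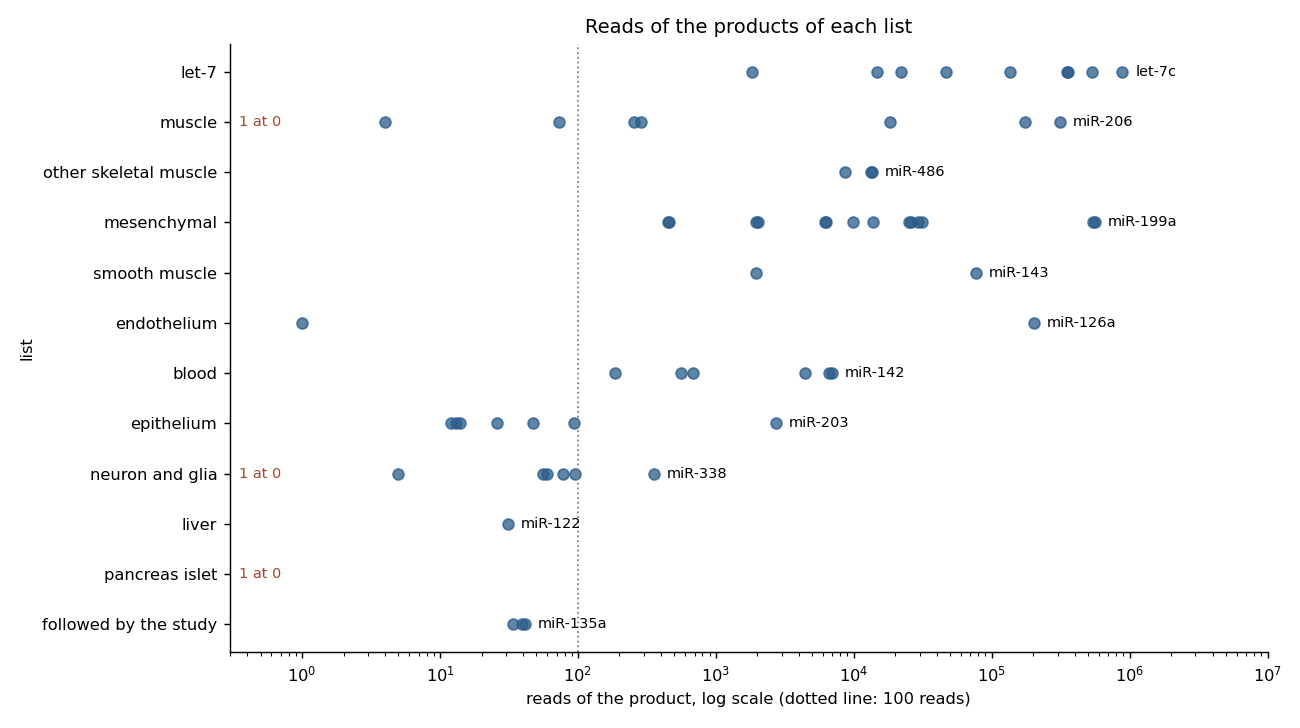
Reads of each product (x axis, log scale, with a dotted line at 100 reads) for the lists of miRNAs known from a tissue or cell type, 1 row per list, with the highest product named and products at 0 counted at the left. The highest products of the muscle, mesenchymal, smooth muscle and endothelial lists had 76466 to 559555 reads, and no product of the neuronal, liver and pancreas lists had more than 354.

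The list of miRNAs known from mesenchyme and skeletal patterning held 18.0% of the reads, or 11.0% with miR-199a and miR-199b counted once, and its 14 products all passed 100 reads. miR-199a and miR-199b made up most of the 18.0%. miR-196a (31327 reads), miR-140 (29002 reads), miR-196b (25992 reads) and miR-10b (24997 reads) stood at ranks 26 to 30, with miR-152 among them. miR-196 and miR-10 lie in the HOX clusters, miR-196b in an exon of Hoxa9 (chr6:52230081-52230165) and miR-196a-2 in an intron of Hoxc5 (chr15:102973350-102973434). Hoxa9 was at 4.30 RPKM and Hoxc5 at 5.34 in the RNA-seq library. miR-10b exceeded miR-10a (6331 reads) 3.95-fold (3.84 to 4.06). miR-22 had 6168 reads, miR-214 1948 reads and miR-455, a cartilage miRNA, 455 reads.

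The endothelial list rested on 1 product, miR-126a (chr2:26591357-26591429) with 2.89% of the reads (2.87 to 2.90), while miR-126b had 1 read. The endothelial markers Pecam1 and Cdh5 were at 27.0 and 43.5 RPKM. The smooth muscle list, miR-143 and miR-145a, held 1.12%, with Myh11 at 12.8 and Acta2 at 87.2 RPKM. The part of these cells in the shares was not tested.

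Blood miRNAs held 0.276% of the reads, and all 6 products passed 100 reads. miR-142 (6904 reads), miR-223 (6582 reads), known from neutrophils and monocytes, and miR-150 (4427 reads), known from lymphocytes, stood above miR-155 (686 reads). The red cell miRNAs miR-451a and miR-144, which lie next to each other, had 559 and 187 reads, a ratio of miR-144 to miR-451a of 0.335 (0.282 to 0.395). The blood markers were at 99.8 (Hba-a1), 30.2 (Hbb-bs) and 1.86 RPKM (Ptprc), and the macrophage markers at 15.9 (Mrc1) and 3.05 RPKM (Adgre1). The part of these cells in the miRNA counts was not tested.

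The lists of miRNAs known from epithelium, neurons and glia, liver and pancreatic islets held few reads, at most 0.0418% (the epithelial list). Of the 7 epithelial products, miR-203 had 2720 reads (0.0389%), while miR-205 had 94, miR-200c 47, miR-141 26, miR-200a 14, miR-200b 13 and miR-429 12. The keratins Krt5 and Krt14 were at 0 in the RNA-seq library, so that the epidermal markers looked up gave no reads beside the 2720 of miR-203. Of the neuronal and glial products only miR-338, known from oligodendrocytes, passed 100 reads, with 354. miR-9 had 95 reads at each of its 3 loci, miR-182 had 78, miR-183 60, miR-219a 56 and miR-96 5, and miR-124a was at 0. The liver miRNA miR-122 had 31 reads and the islet miRNA miR-375 had 0.

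The miRNAs that the study followed further were rare in the Control library. The paper compared them between tissues by real-time PCR and reported expression patterns specific to tendon, which a rank within a library does not measure. The paper had taken them from the miRNAs that were lower in its Dicer cKO than in its Control small RNA library. It describes miR-135a and miR-1247 as highly expressed in Control Achilles tendon. miR-135a had 38 reads at Mir135a-1 and 41 at Mir135a-2, and stood at rank 239 of the 569 products with reads. miR-1247, at the far end of the Dlk1-Dio3 region in an exon of Dio3os, had 39 reads (rank 244), and miR-511, from a macrophage receptor gene, had 34 reads (rank 250). None reached 100 reads. At these counts the interval for miR-135a ran from 0.000420% to 0.000795% of the reads, and the intervals of the 3 products overlapped.

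The deposited RPKM divide each count by the hairpin length and so shift the order a little. By RPKM miR-125b led, with 1094503 at Mir125b-2 and 1011175 at Mir125b-1, ahead of let-7c with 846078 and 843692, because the miR-125b hairpins are annotated with 71 and 77 bases and those of let-7c with 95 and 94. Mir199a-1 and Mir199a-2, with nearly equal counts, had RPKM of 725982 and 463009 at lengths of 70 and 110 bases. Rank by RPKM differed from rank by count by more than 10 places for 23 of the 221 loci, and by at most 18. Since a mature miRNA has the same length whatever its hairpin, the ranks above are by count.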

How the data were processed

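Total RNA of Achilles tendon was sequenced as small RNA and RNA-seq libraries, 1 sample per genotype. Per the study's methods and the submitters' processing notes, the authors trimmed adaptors, mapped reads to GRCm38 (mm10) with TopHat and Bowtie2 and counted them with HTSeq; versions, mismatches allowed and the treatment of reads with several matches are not given in the sources used here. The deposited read counts are raw whole numbers per hairpin feature, 10986541 in the Control small RNA column and 16244232 in the RNA-seq column. The deposited RPKM equal the count per kilobase of hairpin, scaled to the reads of the column. The 4 columns of the other genotypes in the 2 count tables were not used, and no genotypes were compared.

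Shares, exact binomial and conditional ratio intervals at 95% and groupings were computed in Python 3.11.15 with pandas 2.3.3, numpy 2.4.6 and scipy 1.17.1, and plots with matplotlib 3.10.9; the steps were tested on simulated data. Copies were recognised by name, clusters (10 kb) from the GENCODE annotation, and sequences from RefSeq. Named products were the 20 most abundant, the leaders of families and clusters, the listed miRNAs, those the study follows and the 5 on each side of 100 reads. Further products named beside them in their family or cluster were chosen after their values were seen. The members and lists were chosen with earlier results of these data known. Alternatives covered the treatment of copies, the denominator, RPKM, the minimum of reads and the cluster distance.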

Additional observations from a re-analysis of the deposited data

Results flagged for a closer look

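Reads also fell on features that are not named as miRNA genes. These 66 features held 14028 reads, 0.200% of the library. Of them, 13 had 100 or more reads each, 13492 reads together, and are among the 198 products and in the total of reads. The highest were the transfer RNA features n-TSaga9 (2667 reads) and n-TStga1 (2633 reads) and the predicted gene Gm44456 (2641 reads). Gm24270 and Gm24245 had 988 reads each, and whether the same reads were counted at both was not checked. The snoRNA Snord43 had 607 reads. They are given because they lie outside the miRNA genes described one by one, and no single feature reached 1% of the reads.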

How the results depend on the processing

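The number of products with 100 or more reads stayed within 1.5 times of 198 under all 6 alternatives (141 with a minimum of 500 reads to 231 with 50). The shares moved further than their counting intervals under nearly every alternative, since those intervals are narrow. For the 10 leading products (73.5%), the let-7 family (33.5%), the muscle miRNAs (7.20%) and clustered loci (65.7%), in this order, the shares were 60.8%, 35.8%, 6.39% and 63.1% with each locus counted separately, 79.9%, 35.8%, 6.39% and 68.2% with copies added together, and 70.9%, 31.9%, 8.50% and 65.3% by RPKM. With loci of any identical mature sequence counted once, the first 3 were 75.7%, 32.6% and 8.27%, and against the whole column as deposited 46.8%, 21.3% and 4.59%. Joining loci by either arm put 4 loci under let-7c-2. It thereby left out let-7a as a product of its own, although the let-7a guide differs from that of let-7c. With miRNA genes only, the shares were 73.6% for the leading products, 33.6% for let-7 and 65.8% for clustered loci, and the muscle share moved by less than its interval. With miR-199a and miR-199b counted once, an alternative chosen after seeing the data, the shares were 74.3%, 36.3%, 7.81% and 71.2%. Likewise chosen later, the mesenchymal list fell from 18.0% to 11.0% with miR-199 counted once, and the list of Mir486, Mir3107 and miR-378a from 0.507% to 0.317% with the first 2 counted once. Clustered loci held 52.5% with neighbours within 3 kb and 78.9% within 50 kb. No paired analysis was possible because the result comes from 1 library and no test. Without a replicate, no library could be left out, and differences between mice or preparations are not covered. The hairpin counts limit the description to genes, not arms.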

Other observations

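Some further clusters, chosen after their values were seen, had loci with unequal counts. On chromosome X, miR-322 (5273 reads) and miR-351 (2498 reads), both known from muscle differentiation and the cell cycle, lay in a cluster of 7 loci with reads, 5 of which passed 100 reads, and miR-450b had 104. The cluster in the replication gene Mcm7 held miR-25 (10325 reads), miR-93 (4748 reads) and miR-106b (317 reads), a range of 32.6-fold (95% interval 29.1 to 36.5) within 1 host gene that was at 3.95 RPKM in the RNA-seq library. miR-195a (7484 reads) exceeded its neighbour miR-497 (1129 reads) 6.63-fold (6.23 to 7.06). miR-181a exceeded miR-181b in both of their clusters, 5.23-fold (4.95 to 5.53) on chromosome 1 and 4.94-fold (4.68 to 5.21) on chromosome 2, though reads cannot be told apart between the copies. miR-191 (36335 reads) exceeded miR-425 (898 reads) 40.5-fold (37.9 to 43.3) in their shared cluster.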
